A study of Penicillium oxalicum with 9 samples.

Results

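The genes described here are the 120 of 9860 listed genes of Penicillium oxalicum whose messenger RNA was at least 4-fold higher in the crzA deletion strain than in either strain that carries crzA, after 1 was added to each value. Listed runs of neighbouring genes and some single genes were left aside. The 120 genes were chosen by measured values. The mean of log2(FPKM + 1) over the 3 libraries of a strain had to be higher in the deletion strain by at least 2 than in the wild type, and by at least 2 than in the strain with crzA put back. The means of the latter strains had to differ by less than 1. FPKM is a count of sequenced fragments scaled to the length of the gene and the size of the library. Genes at 16 ranges or single loci were dropped whatever their values, and 17 genes that met the value thresholds were lost that way, out of 137.

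CrzA is the filamentous-fungal relative of the yeast factor Crz1. When cytosolic calcium rises, the phosphatase calcineurin removes phosphates from CrzA, which then enters the nucleus and binds its target genes. The pathway is known in fungi for its part in calcium and cation tolerance, cell wall maintenance, growth and sporulation. Crz1 and its relatives are best known as activators, and the transcripts described here are those that stood higher without CrzA.

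Mycelium of the wild type 114-2, of the CrzA deletion strain and of the CrzA recover strain (called the recovery strain here) was compared, with 3 libraries from each and 9 in all. The labels do not say how the deletion and recovery strains were made, whether each is 1 clone, or whether replicates were separate cultures, so any p-value measures how far these libraries spread, and that spread may be technical. All 3 strains were grown for 24 h at 30 °C, then moved to fresh medium with 2% starch and harvested at 18 h. The source label of every sample names glucose instead of starch. The file gives locus numbers with no gene names, and 0 of them were found in the available annotation, which is of another strain. No function is therefore attached to any gene below, and crzA itself was not checked in the libraries.

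Summed FPKM was 973798 to 1063502 per library, and read numbers are unknown. Wild-type replicate 2 and deletion replicate 2 differed from the other libraries of their strains in many of these genes. Some results that rest on these libraries are also given without them, while values of single genes are mostly given with them only. All 120 genes reached 1 FPKM in at least 3 libraries, as did 9099 genes in all, but 19 of the 120 did so only with the help of the deletion libraries.

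The deletion strain held these transcripts at a median of 78.1 FPKM, against 8.25 in the wild type and 6.68 in the recovery strain (medians over the 120 genes of the strain means). The median log2 difference was 2.71 from the wild type and 2.94 from the recovery strain, with ranges of 2.00 to 5.35 and 2.01 to 5.90. Over all 9099 tested genes the medians were 0.06 and -0.02. Both comparisons use the same deletion libraries, and both entered the choice of genes, so these differences are a description and were not tested. In bulk mycelium, more cells of a type and more RNA per cell cannot be told apart, nor can fewer cells and less RNA per cell. The smaller of both differences was at least 3 in 39 genes, at least 4 in 12 and at least 5 in 3. Together the 120 genes made up 3.12%, 2.94% and 3.39% of summed FPKM in deletion replicates 1, 2 and 3. Their share was 0.297%, 0.830% and 0.243% in the wild type and 0.272%, 0.277% and 0.256% in the recovery strain. Wild-type replicate 2 was thus the high one of the 6 libraries with crzA.

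**Figure D1:**
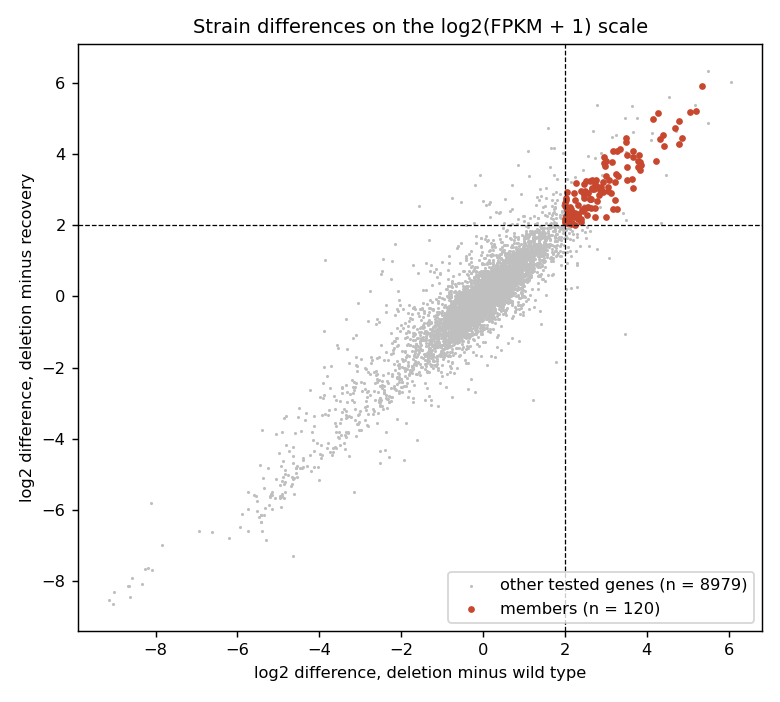
Log2 difference of the deletion strain from the wild type (x axis) and from the recovery strain (y axis) for the 9099 tested genes, on the log2(FPKM + 1) scale, with the 120 chosen genes in red and dashed lines at 2. Grey points in the upper right corner are genes dropped by locus or with recovery and wild-type means that differed by 1 or more.

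In 108 of the 120 genes, all 3 deletion values were above all 6 others, an arrangement that 16.7% of the tested genes had. Against the wild type alone it held for 108, with 21.4% of tested genes as background, and against the recovery strain alone for 118, with 24.4%. The rule used these comparisons, so nothing is read from the counts. In each of the 12 other genes it was wild-type replicate 2 that reached the lowest deletion value. Without that library 118 of the 120 were clear of overlap, and without deletion replicate 2 it was 115.

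The choice has sharp edges. PDE_02469 and PDE_03205 were just inside the threshold against the wild type, at 2.00 and 2.00, and PDE_09934 and PDE_00156 just outside, at 1.996 and 1.994. Against the recovery strain, PDE_09688 and PDE_06922 were just inside at 2.01 and 2.03, and PDE_09698 and PDE_01599 just outside at 1.95 and 1.92. For the recovery strain minus the wild type, PDE_00413 and PDE_05973 were inside at -0.97 and -0.94. PDE_01971, at -1.04, and PDE_06885, at 1.05, were outside, although the deletion strain exceeded the other strains by more than 3 in both. In all, 47 genes missed only the first threshold, 22 only the second and 16 only the limit on the recovery strain.

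The largest difference was that of PDE_04228. Its level was 30.2, 9.46 and 20.3 FPKM in wild-type replicates 1, 2 and 3, and 12.1, 11.7 and 12.3 in the recovery strain. In the deletion strain it was 411, 1068 and 1065 FPKM. The lowest deletion value was still more than 10 times the highest value with crzA. The log2 difference was 5.35 ± 0.65 from the wild type and 5.90 ± 0.46 from the recovery strain (SE from the SDs of both strains, n = 3 each).

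In 6 of the strongest genes no library with crzA exceeded 9.07 FPKM, and neither replicate 2 library stood apart from its strain by 1 or more on the log2 scale. PDE_05901 stood at 2.41, 1.36 and 0.92 FPKM in the wild-type libraries, 107, 76.7 and 92.5 in the deletion strain, and 1.28, 3.82 and 0.46 in the recovery strain. PDE_07531 stood at 0.13, 0.82 and 0.45 FPKM in the wild-type libraries, 45.5, 66.0 and 35.1 in the deletion strain, and 0.39, 0.58 and 0.06 in the recovery strain. Both had log2 differences above 5 in both comparisons. PDE_06674 stood at 103, 100.3 and 86.7 FPKM in the deletion strain, where its SD was 0.13 on the log2 scale, against 0.71 for PDE_03463. With crzA it lay between 1.46 and 3.74 FPKM, so its levels with and without crzA were far apart in every library. PDE_03463 stood at 3.25, 3.09 and 2.21 FPKM in the wild-type libraries, 46.2, 123 and 86.3 in the deletion strain, and 2.49, 2.84 and 2.16 in the recovery strain. PDE_00327 stood at 29.7, 27.1 and 26.4 FPKM in the deletion strain and at no more than 1.45 with crzA. PDE_04073 stood at 85.9, 170 and 105 FPKM in the deletion strain and at no more than 9.07 with crzA. In each of these 6 genes the deletion values were clear of every other library.

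**Figure D2:**
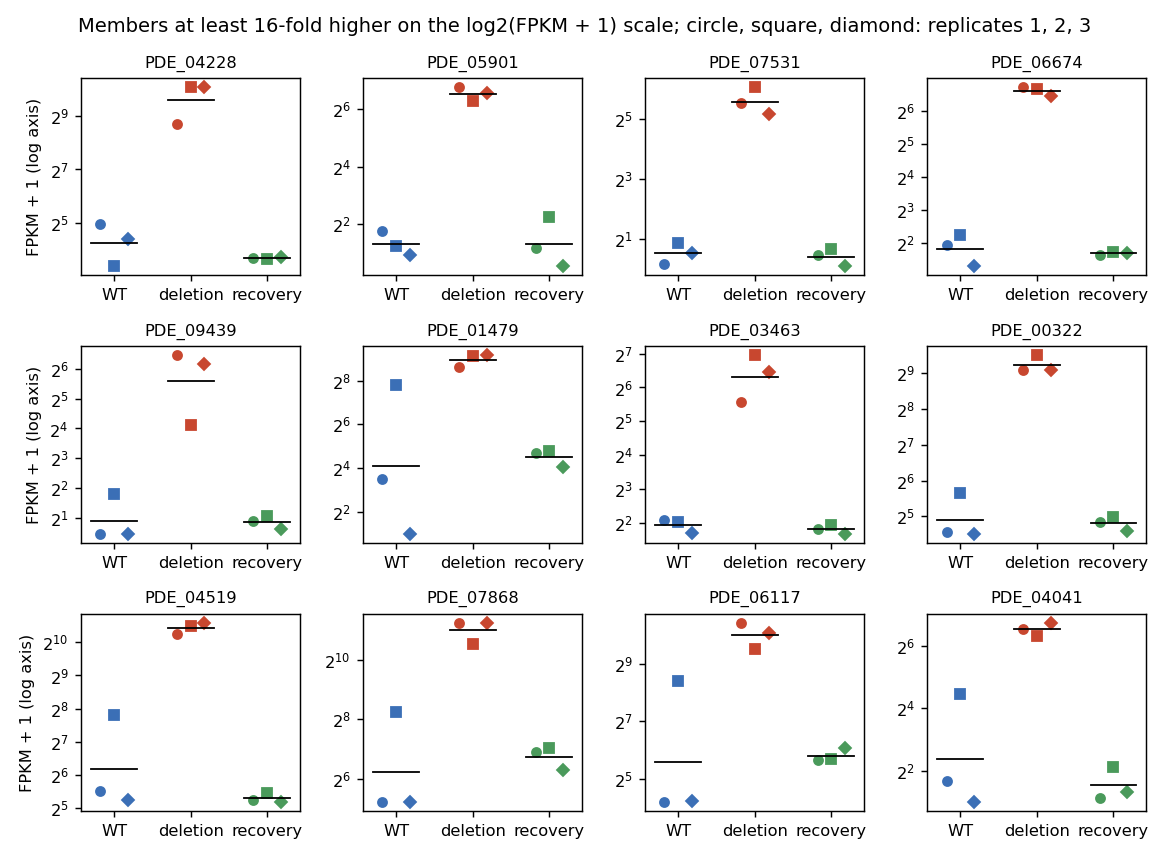
FPKM + 1 in every library (log axis) for the 12 genes whose log2 difference was at least 4 against both other strains. Bars are strain means on the log2 scale, and circles, squares and diamonds are replicates 1, 2 and 3. Deletion values lie above all others in each panel, and the square of the wild type is the high one in most panels, as at 218 FPKM in PDE_01479.

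The most abundant of the 120 in the deletion strain was PDE_06722. It stood at 2096, 2631 and 3747 FPKM there, against 321, 142 and 224 in the wild type and 213, 168 and 169 in the recovery strain. It was thus well expressed with crzA and higher still without. PDE_07868 followed at 2424, 1496 and 2427 FPKM in the deletion strain, with 36.3, 302 and 36.4 in the wild type and 119, 131 and 76.7 in the recovery strain. PDE_02095, PDE_08907 and PDE_04519 completed the 5 highest, with deletion means of 1726 ± 377, 1616 ± 531 and 1402 ± 156 FPKM. These 5 genes held 30.8% of the deletion-strain FPKM of the whole set, and 10 genes reached a mean of 1000 FPKM.

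At the other end, 13 genes had a mean under 1 FPKM in both strains with crzA, and 6 were under 1 FPKM in each of the 6 libraries. The deletion means of the 13 ran from 4.60 to 48.9 FPKM. PDE_08484 marked the low end, at 3.26, 8.50 and 2.05 FPKM in the deletion strain, 0.21, 0.21 and 0.22 in the wild type, and 0, 0 and 0.11 in the recovery strain. PDE_07531, given above, marked the high end. A total of 8 genes were listed at 0 in at least 1 library. Adding 1 before the logarithm understates the differences of such genes. By strain mean, 14 genes were under 1 FPKM in the wild-type libraries, 52 from 1 to under 10, 37 from 10 to under 100, and 17 at 100 or more. In the deletion strain these counts were 0, 8, 63 and 49.

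Wild-type replicate 2 was uneven for many of these genes. The rule did not use the difference of this library from the mean of wild-type replicates 1 and 3 directly. However, this library is part of the wild-type mean that the rule used, so the choice of genes partly fixes that difference. The median of the difference over the 120 genes was 0.58 on the log2 scale, against -0.02 over the tested genes. Its middle range (lower to upper quartile) over the 120 was -0.13 to 1.48. Wild-type replicate 2 was at least 1 higher in 46 genes (38.3%) and at least 1 lower in 7 (5.83%). Among all tested genes these shares were 2.66% and 7.42%, and because of that choice nothing is read from the gap. In 33 of the 120 genes this library lay nearer to the deletion mean than to the mean of wild-type replicates 1 and 3. That count was made for the 120 alone, with no share over the tested genes, so nothing is read from it. Whatever sets wild-type replicate 2 apart was not tested.

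PDE_01479 had the greatest difference of this kind. Its wild-type values were 10.4, 218 and 0.99 FPKM, its deletion values 387, 551 and 570, and its recovery values 24.9, 27.0 and 15.4. Wild-type replicate 2 thus came near the deletion strain, while replicate 3 was almost silent. PDE_02095 stood at 68.3, 1323 and 19.5 FPKM in the wild-type libraries, 1314, 2054 and 1809 in the deletion strain, and 157, 151 and 73.5 in the recovery strain. Here wild-type replicate 2 slightly exceeded deletion replicate 1, so the strains overlapped. PDE_06117 gave 17.2, 335 and 17.5 FPKM in the wild-type libraries against 1377, 734 and 1082 in the deletion strain and 48.9, 50.9 and 65.3 in the recovery strain. PDE_04519 gave 44.0, 222 and 36.9 against 1230, 1439 and 1536, with 36.9, 42.7 and 35.2 in the recovery strain. PDE_04041 gave 2.20, 20.8 and 1.02 against 91.1, 78.5 and 105, with 1.21, 3.41 and 1.54 in the recovery strain. In these 3 genes the raised wild-type value stayed below every deletion value. PDE_00322 gave 22.5, 49.7 and 21.7 FPKM in the wild-type libraries, 551, 729 and 547 in the deletion strain, and 27.9, 30.8 and 23.1 in the recovery strain. PDE_01256 and PDE_01790 had the same wild-type library high, by 1.04 and 1.31 on the log2 scale.

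The opposite was seen in 7 genes, where wild-type replicate 2 was the low one by at least 1. PDE_05892 stood at 19.6, 2.99 and 22.9 FPKM in the wild-type libraries, with 149, 229 and 158 in the deletion strain and 10.1, 12.8 and 8.26 in the recovery strain. PDE_08908 went further, at 47.7, 2.16 and 24.7 FPKM in the wild type. The wild-type mean of such genes therefore lay below the level of the other wild-type libraries.

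**Figure D3:**
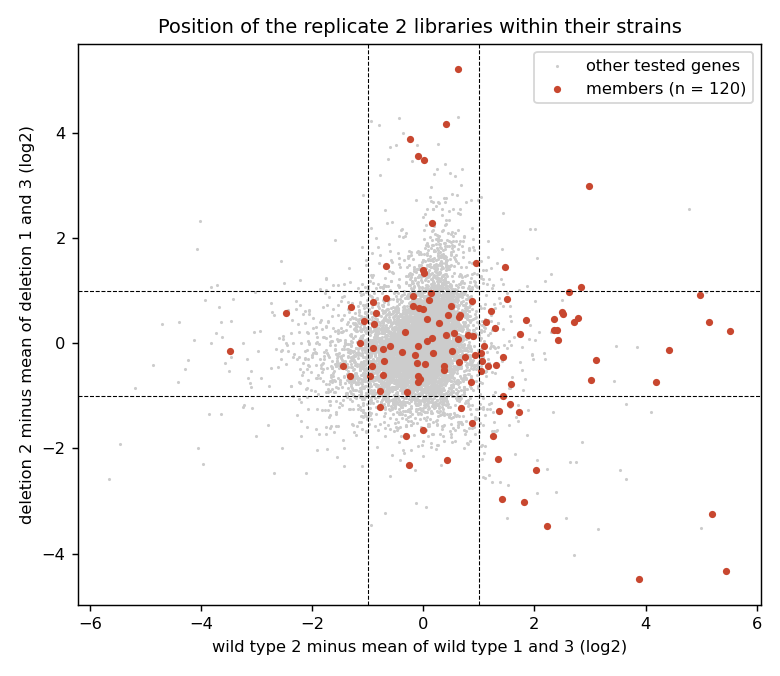
Log2 difference of wild-type replicate 2 from the mean of wild-type replicates 1 and 3 (x axis) and of deletion replicate 2 from the mean of deletion replicates 1 and 3 (y axis), on the log2(FPKM + 1) scale. The 120 genes (red) spread to the right, with 46 at or beyond 1 on the x axis, and 13 of the 20 genes at or below -1 on the y axis lie at or beyond 1 on the x axis. Both replicate 2 libraries are part of the means that chose the 120, so nothing is read from these counts.

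Deletion replicate 2 divided the genes in both directions. Its median difference from deletion replicates 1 and 3 was -0.01, but it was at least 1 lower in 20 genes (16.7%) and at least 1 higher in 13 (10.8%). Among the tested genes these shares were 6.46% and 6.46%. Deletion replicate 2 is part of the deletion mean that the rule used, so the choice of genes partly fixes these counts and nothing is read from them. The genes of the set were also less abundant with crzA than the tested genes, whose median was 29.1 FPKM in the wild-type libraries, and the part that low levels play in this spread was not tested.

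Of the 20 genes low in deletion replicate 2, 13 were also at least 1 higher in wild-type replicate 2. PDE_00369 and PDE_00370, with neighbouring numbers, were both of this kind. PDE_00369 stood at 18.5, 514 and 6.17 FPKM in the wild-type libraries, 1090, 44.3 and 763 in the deletion strain, and 57.6, 81.2 and 76.2 in the recovery strain. PDE_00370 stood at 32.2, 742 and 11.4, then 1601, 135 and 1040, then 96.6, 117 and 121 FPKM. In both, wild-type replicate 2 was above deletion replicate 2. Their log2 differences from the wild type were 3.01 ± 2.36 and 3.18 ± 2.09 (SE from the SDs of both strains, n = 3 each), so the SE was over 0.5 times the difference. PDE_02937 had the same form at a lower level, with 1.05, 22.9 and 0.29 FPKM in the wild-type libraries, 112, 2.18 and 44.3 in the deletion strain, and 1.52, 1.22 and 2.21 in the recovery strain. PDE_03841 and PDE_09964 were abundant examples, at 1464, 187 and 1441 FPKM and at 1912, 227 and 1784 FPKM in the deletion strain. PDE_09439, among the strongest genes by mean, also belonged here, with 87.02, 16.4 and 71.4 FPKM in the deletion strain and at most 2.5 in any library with crzA.

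In 13 genes the deletion mean was raised by deletion replicate 2. PDE_05737 was the extreme, at 0.99, 101 and 2.81 FPKM in the deletion strain, 0.89, 1.44 and 0.34 in the wild type, and 0.45, 0.56 and 0.68 in the recovery strain. Deletion replicate 1 did not stand above the wild type, so the place of this gene in the set rested on deletion replicate 2. PDE_07587 stood at 10.3, 229 and 13.3 FPKM in the deletion strain and at 4.63 to 7.11 with crzA. PDE_01392 stood at 13.7, 320 and 30.5 FPKM in the deletion strain and at 5.16 to 7.97 with crzA. In both, the other deletion libraries also exceeded every library with crzA, by less. Without deletion replicate 2 neither would have met the threshold of 2 against the wild type. PDE_01370, at 5.44, 91.0 and 8.46 FPKM in the deletion strain, and PDE_09275, at 4.20, 60.7 and 4.76, had the same form and no value above 1.61 with crzA. Their place in the set also rested on deletion replicate 2. PDE_09406 gave 110, 776 and 226 FPKM in the deletion strain, against 18.6, 21.9 and 20.5 in the wild type and 13.1, 16.6 and 15.6 in the recovery strain.

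**Figure D4:**
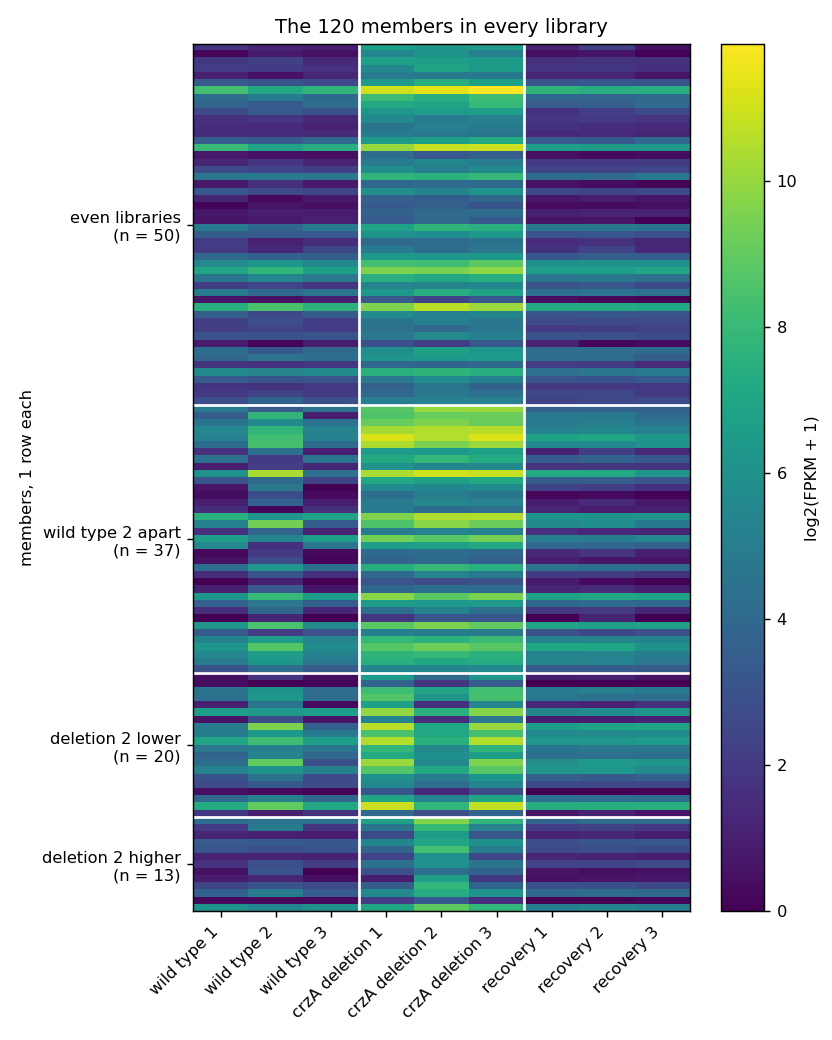
Log2(FPKM + 1) of the 120 genes (rows) in the 9 libraries (columns), in 4 blocks by whether a replicate 2 library differed by at least 1 from its strain. In the 50 genes of the top block neither library does, and in the next 37 wild-type replicate 2 alone does. The lower blocks hold the 20 genes with deletion replicate 2 lower and the 13 with it higher, and some genes of both also have wild-type replicate 2 apart.

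The remaining 50 genes had neither replicate 2 library apart by 1 or more, and in 50 of these 50 every deletion value was above every other value. Among all tested genes 16.7% had this arrangement. The rule and this split used the same values and all but fix the count, so nothing is read from it. Beyond the genes named above, the 50 include PDE_06305. It stood at 284, 175 and 301 FPKM in the deletion strain, 17.8, 31.0 and 15.6 in the wild type, and 14.7, 13.7 and 16.3 in the recovery strain.

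The recovery libraries were close to each other. The median SD over the recovery libraries was 0.18 on the log2 scale for these genes, against 0.52 over the wild-type and 0.41 over the deletion libraries. Over all tested genes the medians were 0.11, 0.21 and 0.28 in the same order. The recovery mean was below the wild-type mean in 81 genes and above it in 39, with a median difference of -0.13, and it lay within 0.5 in 87 genes. It was lower by 0.5 or more in 26 genes and higher by that much in 7. Measured from wild-type replicates 1 and 3 alone, the median difference was 0.02, and from wild-type replicate 2 alone it was -0.46. In the 46 genes with wild-type replicate 2 high, the recovery mean was below that library in 46 and above the mean of wild-type replicates 1 and 3 in 41. The median difference from replicates 1 and 3 was 0.41 over the 46. The rule held the recovery mean within 1 of a wild-type mean that includes replicate 2. That limit partly fixes these counts and differences in advance, so nothing is read from them.

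PDE_07430 had the highest recovery level for its wild-type level. It stood at 3.44, 4.66 and 2.54 FPKM in the wild-type libraries, 7.36, 8.39 and 5.29 in the recovery strain, and 41.9, 39.5 and 45.4 in the deletion strain. Every recovery value exceeded every wild-type value and stayed far below the deletion strain. PDE_00369, given above, came next at 0.79, on uneven wild-type values. The lowest recovery level for its wild-type level was that of PDE_00413, at 96.2, 38.9 and 100.03 FPKM in the wild-type libraries, 33.1, 33.2 and 43.7 in the recovery strain, and 657, 423 and 651 in the deletion strain. PDE_05973 followed, with 0.31, 6.18 and 0.22 FPKM in the wild type and 0.18, 0.27 and 0.09 in the recovery strain. Here wild-type replicate 2 alone was above the recovery range by more than 1 FPKM.

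To read the difference in libraries that had not chosen the genes, the rule was applied to 2 replicates of each strain and the genes were read in the held-out replicate of each. With replicate 1 held out, 107 genes were chosen, 89 of them among the 120. In the held-out libraries 106 of them were higher in the deletion strain than in the wild type, and 106 than in the recovery strain. The median differences were 2.70 and 2.78, against 2.86 and 2.97 in the libraries that chose them, and 68 genes (63.6%) kept a difference of at least 2 in both comparisons. With replicate 3 held out the medians were 2.99 and 3.0 over 109 genes, and 78 (71.6%) kept both. With replicate 2 held out the medians were 1.41 and 2.19 over 139 genes, and 44 (31.7%) kept both, while 115 and 135 were still higher in the deletion library. A difference of at least 2 in both comparisons was held by 2.13%, 2.09% and 2.21% of tested genes in replicates 1, 2 and 3. The medians over all tested genes were 0.105 and 0.009 in replicate 1, 0.077 and -0.028 in replicate 2, and -0.044 and -0.030 in replicate 3. No share of tested genes above 0 was computed, so nothing is read from the counts of genes that were merely higher. One library per strain was held out, so no test was made.

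Although runs of neighbouring genes had been dropped, not all of the chosen genes were isolated. A total of 29 lay in 12 groups whose successive locus numbers differ by at most 3, and 91 were single by that measure. Locus numbers usually follow the order along the assembly, but the file gives no positions, gene ends or strands, so reads shared between overlapping neighbours cannot be told apart. There were 8 groups of 2 genes, 3 of 3 and 1 of 4. PDE_01255 and PDE_01256 lie just beyond the end of a dropped range.

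The group of 4 was PDE_03413, PDE_03414, PDE_03415 and PDE_03417. These were low with crzA and modest without. PDE_03413 stood at 0.33, 0 and 0.16 FPKM in the wild-type libraries, 13.9, 2.77 and 10.1 in the deletion strain, and 0, 0 and 0.08 in the recovery strain. PDE_03414 stood at 8.12, 1.48 and 5.69 FPKM and PDE_03415 at 18.6, 8.48 and 10.7 in the deletion strain, and neither exceeded 0.76 with crzA. PDE_03417 was higher throughout, at 55.6, 31.7 and 50.8 FPKM in the deletion strain and 3.66 to 5.85 with crzA. In all 4, deletion replicate 2 was the lowest deletion library. PDE_03416, which lies between them and missed the thresholds, had 5.93, 5.38 and 3.63 FPKM in the deletion strain against 1.56, 1.02 and 1.52 in the wild type. It was called higher against the wild type (log2 difference 1.32, limma adjusted p = 0.00137) and the recovery strain (0.92, adjusted p = 0.00824). PDE_03412 and PDE_03418, on either side, were not called, at 0.25 and 0.10 against the wild type.

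PDE_08906, PDE_08907 and PDE_08908 formed the most abundant group. PDE_08906 stood at 191, 73.0 and 122 FPKM in the wild-type libraries, 768, 1407 and 1436 in the deletion strain, and 69.5, 67.5 and 64.2 in the recovery strain. PDE_08907 ran parallel at 261, 112 and 166, then 1009, 1841 and 1998, then 95.8, 88.7 and 85.8 FPKM. PDE_08908 was lower, at 97.4, 106 and 142 FPKM in the deletion strain and 15.4, 14.3 and 11.3 in the recovery strain. PDE_08912 and PDE_08917, a few numbers on, were also among the 120, with deletion means of 679 ± 205 and 273 ± 117 FPKM. The genes listed between them had log2 differences from the wild type of -0.30 to 0.84, so the high genes of this stretch were not consecutive.

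**Figure D5:**
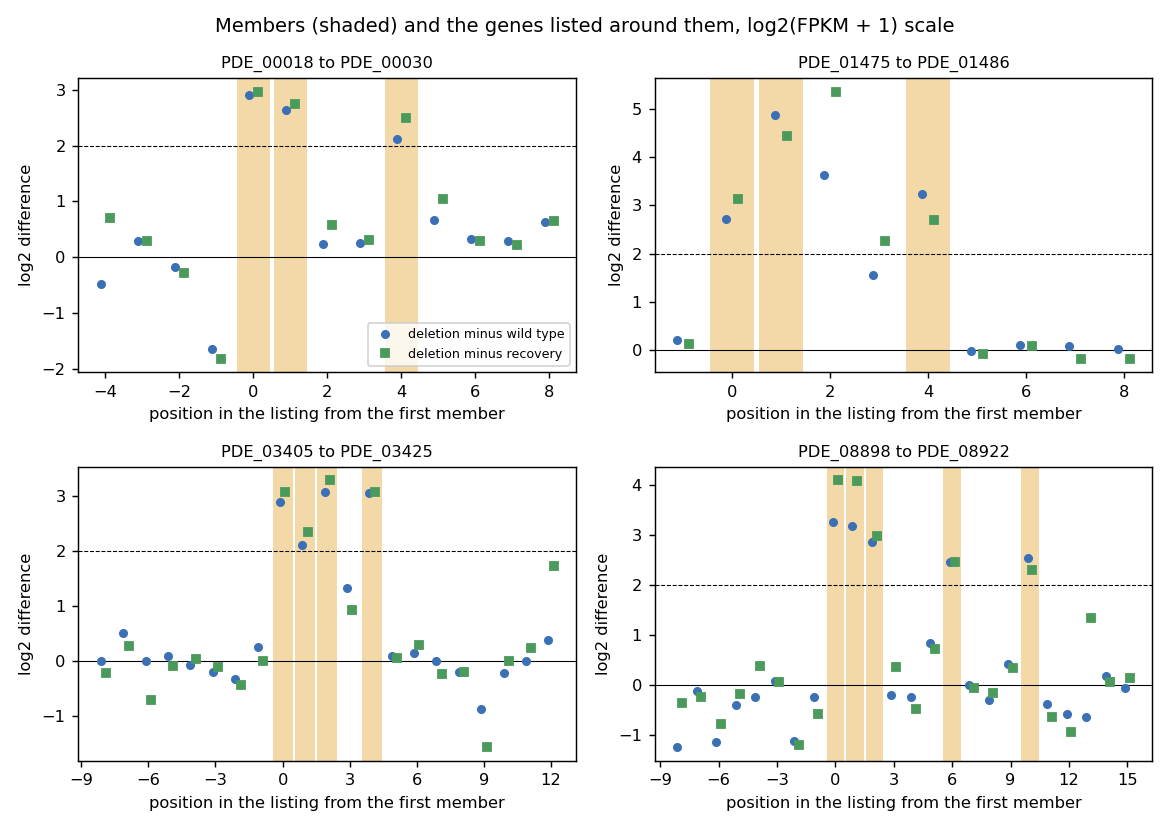
Log2 difference of the deletion strain from the wild type (blue circles) and from the recovery strain (green squares) for the genes listed around 4 groups, on the log2(FPKM + 1) scale. Shaded positions are genes of the set and the dashed line is at 2. Many genes beside the shaded ones lie near 0, while PDE_01480, PDE_01481 and PDE_03416 lie higher and PDE_00021 lies lower.

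In the group PDE_01478, PDE_01479 and PDE_01482, the genes between also stood high. PDE_01478, at 8.94, 14.9 and 9.16 FPKM in the deletion strain, did not exceed 1.05 with crzA. PDE_01482 stood at 15.6, 17.4 and 15.0 FPKM in the deletion strain, with 0.21, 3.02 and 0.21 in the wild type. PDE_01480 had 90.5, 213 and 130 FPKM in the deletion strain, 5.98, 114 and 0.66 in the wild type, and 2.21, 2.56 and 2.31 in the recovery strain. It was kept out of the set by a recovery mean 1.71 below the wild type. It was called against the recovery strain (log2 difference 5.35, limma adjusted p = 0.0106) but not against the wild type (3.63, adjusted p = 0.0581). PDE_01481, at 1.56 and 2.26, was likewise called only against the recovery strain (adjusted p = 0.063 and 0.0127), and no test compared these results with each other. Wild-type replicate 2 was the high wild-type library in PDE_01479, PDE_01480, PDE_01481 and PDE_01482.

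PDE_00022 stood at 9.38, 11.2 and 7.42 FPKM in the deletion strain and PDE_00023 at 16.1, 16.7 and 20.3, near PDE_00026 at 235, 190 and 278. They did not exceed 0.55, 3.28 and 90.8 FPKM with crzA. PDE_00021, beside them, went the other way, from 2176, 3481 and 2735 FPKM in the wild type to 712, 939 and 989, and was called lower (log2 difference -1.66, limma adjusted p = 0.00126).

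The other groups were pairs. PDE_00326 and PDE_00327 had deletion means of 33.7 ± 7.63 and 27.7 ± 1.73 FPKM, and PDE_01790 and PDE_01791 means of 129 ± 20.6 and 90.1 ± 14.4. PDE_07207 and PDE_07208 had like patterns, at 85.7, 103 and 156 and at 140, 121 and 244 FPKM in the deletion strain. PDE_01255 and PDE_01256 stood at 7.33 ± 2.73 and 51.5 ± 14.3 FPKM there, PDE_01278 and PDE_01280 at 54.6 ± 13.2 and 38.1 ± 12.8, and PDE_09862 at 20.3 ± 3.88. PDE_09863, beside the last, had 2.64, 7.81 and 8.12 FPKM in the deletion strain and was listed at 0 in 4 of the 6 other libraries. PDE_09408 stood at 12.4, 16.1 and 18.0 FPKM in the deletion strain, without the high replicate 2 of PDE_09406. Deletion replicate 2 was at least 1 lower on the log2 scale in both PDE_00369 and PDE_00370, and in both PDE_03413 and PDE_03414.

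The genes next in the listing to the 120, on either side, were picked by position and tested. Those that met the value thresholds were in the set already, so the neighbours left had each missed a threshold in these same libraries. These neighbours numbered 213, none at a dropped locus, and 188 passed the filter. Setting the deletion strain against wild type, 43 (22.9%) were higher in the deletion strain and 11 (5.85%) lower, where 15.0% and 11.1% of all tested genes were (limma across all genes, Benjamini-Hochberg adjusted p under 0.05). Against the recovery strain 40 (21.3%) were higher and 18 (9.57%) lower, where 15.4% and 16.1% of all tested genes were. After rescaling to TPM (each library to the same sum), 47 of 59 such calls were higher, against 40 of 58, while the shares of all tested genes became 18.0% higher and 13.1% lower. The median log2 difference of the neighbours was 0.15 and 0.15, against 0.06 and -0.02. Neighbours that met the thresholds had become part of the set, and the shares were not tested against the background. Without wild-type replicate 1 the higher neighbours against the wild type numbered 24 (12.8%, background 8.65%), and without wild-type replicate 3 they numbered 25 (13.3%, background 8.66%). Without both replicate 2 libraries that stood apart, 63 (34.1%, background 28.8%) were higher against the wild type and 62 (33.5%, background 29.3%) against the recovery strain. Some of the 188 neighbours passed the filter only through the deletion libraries. With no filter, 43 of the 213 (20.2%, background 13.8%) were higher against the wild type and 44 (20.7%, background 14.3%) against the recovery strain.

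PDE_07206, beside PDE_07207, changed most among the neighbours called in both comparisons. It stood at 33.2, 29.8 and 51.8 FPKM in the wild-type libraries, 410, 286 and 638 in the deletion strain, and 7.63, 11.01 and 20.6 in the recovery strain. The log2 difference was 3.47 ± 0.39 from the wild type (SE, limma adjusted p = 0.000234) and 5.01 ± 0.39 from the recovery strain (adjusted p = 1.70e-05). It was outside the set because the recovery strain was 1.54 below the wild type. PDE_09793, beside PDE_09794, went from 0.56, 0.08 and 0.40 FPKM to 4.05, 3.76 and 4.14, a log2 difference of 1.90 ± 0.19 (limma adjusted p = 0.000104). PDE_09793 stayed under 1 FPKM in every library with crzA. It passed the filter only through the deletion libraries, where it was high, so its p-value does not stand free of that choice. PDE_05900, beside PDE_05901, went from 1.86 ± 0.56 to 14.4 ± 3.85 FPKM (SD, n = 3 each, limma adjusted p = 0.000404). PDE_01578, beside PDE_01577, went from 6.76 ± 2.91 to 26.7 ± 10.6 FPKM (limma adjusted p = 0.00548), and PDE_05240, beside PDE_05239, from 11.2 ± 1.14 to 48.7 ± 16.6 (limma adjusted p = 0.000215). All 5 neighbours had every deletion value above every value with crzA, as did 16.7% of the tested genes. The 5 were picked for being called higher in both comparisons, so nothing is read from this.

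Genes of 2 other kinds met like thresholds and are given for comparison, without a test. The 17 genes at dropped loci had a larger median difference, of 3.65 from the wild type and 4.27 from the recovery strain, at a median of 9.71 FPKM in the wild type. Turning the thresholds round, with no locus dropped, gave 264 genes lower in the deletion strain, which were abundant with crzA, at a median of 122 FPKM in the wild type. The median difference of wild-type replicate 2 from the other wild-type libraries was -0.30 in those 264 genes, toward the deletion strain there too. Deletion replicate 2 differed by at least 1 in few of them, with 5 lower (1.89%) and 4 higher (1.52%), against the 20 and 13 of the 120. The 264 genes stood at a median of 7.56 FPKM in the deletion strain, against 78.1 for the 120, and the part that level plays was not tested. In the 17 genes at dropped loci, deletion replicate 2 was at least 1 lower in 3 (17.6%) and higher in 1 (5.88%). Wild-type replicate 2 was at least 1 higher in 4 of them (23.5%) and lower in 1, so uneven libraries were not particular to the 120. Both replicate 2 libraries are part of the strain means that chose each of these sets, which partly fixes such counts.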

How the data were processed

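Messenger RNA was measured in 9 libraries, grouped by the strain the sample titles give. The authors deposited 1 table of 9860 genes in FPKM (per the file headers), with 2 decimals, and its columns were matched to samples by title. Per the labels' protocols, the libraries were short tags cut with NlaIII and MmeI, for which division by gene length is not needed, so levels of different genes may not compare as molecules. For alignment, counting, build and gene models, the tools were not given in the sources used here. Read depth is unknown, and no counting interval was computed. No column pair was identical.

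Values were analysed as log2(FPKM + 1) without rescaling. A difference of strain means is given with the SE from both strains' SDs. For genes next in the listing (at most 5 numbers away), the package limma 3.58.1 (R 4.3.3) tested every gene with at least 1 FPKM in at least 3 libraries, with 1 mean per strain, trend and robust moderation, two-sided tests and Benjamini-Hochberg adjustment at 0.05. It was checked on data with known changes. Other steps used Python 3.11.15, numpy 2.4.6, pandas 2.3.3 and matplotlib 3.10.9.

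The 120 genes, the tests and the rule for naming genes were chosen with earlier results of these data known. The rule names the 20 largest changes, the 5 highest deletion levels, extremes of recovery, threshold edges, members within 3 locus numbers, the most uneven genes and 5 called neighbours. Other loci were named after their values were seen. Alternatives covered pseudocounts, scaling, filters, thresholds, the median, left-out libraries and the replicate block.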

Additional observations from a re-analysis of the deposited data

How the results depend on the processing

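The number of genes in the set was 120. It was 77 with a pseudocount of 5 (69 of the 120 kept), 230 with a log2 threshold of 1.5, and 39 with one of 3 (39 kept), the last 2 by construction. Under the other settings tried it stayed within 1.5 times, from 156 with a pseudocount of 0.1 (109 kept) to 87 with recovery within 0.5 of the wild type. Rescaling to TPM gave 134 genes (120 kept). Leaving out 1 library gave 100 to 144 genes with 94 to 120 of the 120 kept, and leaving out wild-type replicate 2 and deletion replicate 2 together gave 143 with 89 kept.

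The median log2 difference from the wild type, 2.71, was 3.12 with a pseudocount of 0.1, 2.19 with 5, 3.04 with the median of the libraries and 3.04 without both replicate 2 libraries. That from the recovery strain, 2.94, was 3.37 and 2.32 with the same pseudocounts. The held-out count was 68 for replicate 1 and 44 for replicate 2. The cause was not tested.

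Neighbours called against the wild type numbered 54 (43 higher). They numbered 31 to 69 (24 to 50 higher) with 1 library left out, 93 without both replicate 2 libraries, and 113 (80 higher) of 377 tested at 2 positions. Against the recovery strain there were 58 (40 higher), 39 to 76 (28 to 51 higher) with 1 library left out, 103 (62 higher) without both, and 121 (77 higher) at 2 positions. The 5 named neighbours kept direction and call in each setting in which they passed the filter. PDE_09793 did not pass it at 5 FPKM or with any deletion library left out, so those settings say nothing about it. The labels do not tie replicate numbers across strains. Deviations from strain means correlated over 0.1 in 3 of the 9 possible pairs with a shared number (from -0.11 to 0.22), so no pairing was assumed, although 6 of the 9 libraries correlated best with their own number. With the replicate block, 50 and 58 neighbours were called. The counts on replicate 2 libraries and on values that do not overlap moved by less than 1.5 times under each scaling. Absolute depth is unknown, so what it limits was not estimated.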
